A study of Arabidopsis thaliana with 6 samples.

Results

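The arabinogalactan peptide (AG-peptide) genes were examined in root tips of Arabidopsis thaliana, as 10 of the 37336 genes counted: AGP12 (AT3G13520), AGP13 (AT4G26320), AGP14 (AT5G56540), AGP15 (AT5G11740), AGP16 (AT2G46330), AGP20 (AT3G61640), AGP21 (AT1G55330), AGP22 (AT5G53250), AGP24 (AT5G40730) and AGP41 (AT5G24105). They were taken by locus from all 6 count files. The family was selected on its differences between genotypes in an earlier look at these data, so every comparison of hsl2 with wild type for these genes is a description and carries no test. The groups were the hsl2 mutant and the wild type, both in the Col-0 accession, with 3 libraries each. Total RNA came from the last 0.5 mm of primary roots at 7 days, grown on vertical agar without sucrose in long days. The labels name neither the hsl2 allele nor whether its libraries came from plants grown separately. The series was designed to ask how loss of HSL2, a HAESA-type receptor kinase known from floral organ abscission, affects sloughing of the root cap.

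AG-peptides are the smallest members of the arabinogalactan protein superfamily. Each is made as a short precursor with a secretion signal, a proline-rich core and a tail that is replaced by a glycosylphosphatidylinositol (GPI) lipid anchor. Prolines of the core are hydroxylated and then carry large arabinogalactan chains, which leaves a heavily glycosylated peptide at the outer face of the plasma membrane. In roots, AGP21 is known to act in brassinosteroid-dependent choice of root hair fate through GL2, and loss of AGP14 is known to lengthen root hairs.

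The genes encode products of 58 to 74 codons, and in each of the 10 coding sequences of RefSeq TAIR10.1 the core had proline at every second codon. The cores are shown for 5 members: those with the largest differences between genotypes (AGP13, AGP24), a relative of AGP13 (AGP12), the member with the lower mean in hsl2 (AGP16), and AGP22. The products of AGP16 and AGP22 had 48.6% identity. AGP20, not shown, was closer to AGP16, at 86.5%. Each stretch is coding sequence, 5′ to 3′, from 3 codons before the core to 3 codons after it, with the proline codons of the core in capitals.
AGP12: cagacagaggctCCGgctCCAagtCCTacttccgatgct
AGP13: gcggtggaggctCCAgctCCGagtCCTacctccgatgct
AGP16: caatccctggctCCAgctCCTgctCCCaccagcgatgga
AGP22: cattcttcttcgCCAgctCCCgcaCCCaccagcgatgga
AGP24: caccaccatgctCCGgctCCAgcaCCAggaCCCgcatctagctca
AGP24 had 4 proline codons in its core and the other 9 members had 3. Linking products with at least 50% identity put AGP12, AGP13, AGP14 and AGP21 in one subgroup (58.3% to 75.0% identity between pairs) and AGP16, AGP20, AGP22 and AGP41 in another (46.7% to 86.5%). AGP15 and AGP24 joined neither. The 4 genes of the second subgroup have 2 coding exons each, and the other 6 members have 1.

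Similarity between members bears on how reads were assigned. The longest exact stretch shared by the transcripts of any pair was 29 bases, between AGP16 and AGP22, and AGP16 and AGP20, at 86.5% product identity, shared 26. Read length is not given in the sources used here, nor is the strand setting. AGP16 overlaps AT2G46320 on the opposite strand, which averaged 9.4 ± 0.313 CPM in hsl2 and 9.47 ± 1.27 CPM in wild type (SD, n = 3 each; CPM is the normalised read count, scaled to TMM effective library sizes). AGP21 overlaps AT1G55335 on the opposite strand, which had 0 to 3 counts per library. Without the strand setting, reads of such overlapping partners cannot be told apart.

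Library totals were 15051468 to 19353957 counts in hsl2 and 15791819 to 20468890 counts in wild type. A count of 3 equalled 0.152 to 0.213 CPM in hsl2 libraries and 0.148 to 0.185 CPM in wild type libraries. HSL2 (AT5G65710) transcript was at 9.06 ± 1.25 CPM in hsl2 and 7.61 ± 0.881 CPM in wild type (SD, n = 3), so it does not check the genotype labels. The hsl2 replicate 1 library stood apart in transcripts of green tissue, and the wild type replicate 3 library in transcripts of root hairs and root cap, as given below. Over all genes tested, chi-square per degree of freedom between libraries was 33.76 to 49.81 for hsl2 replicate 1 against each other library. Wild type replicate 3 was nearer to hsl2 replicates 2 and 3 (13.32 and 12.73) than to wild type replicates 1 and 2 (17 and 21.52). Across all genes, edgeR's quasi-likelihood test called 0 of 17989 genes at an adjusted p of 0.05, which is 0% of them, and 2436 had an unadjusted p under 0.05. DESeq2 called 165 genes higher in hsl2, which is 0.917% of those tested. Counts come from bulk tissue, where fewer cells of a type and less RNA per cell cannot be told apart.

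All 10 members passed the filter on low counts. In the hsl2 libraries they had 7955, 12375 and 8919 counts together, which is 0.0529%, 0.0639% and 0.0578% of all counts, against 7533, 6859 and 7454 counts in wild type libraries, or 0.0368%, 0.0434% and 0.0466%. Summed over the members, the level was 591.8 ± 30.6 CPM in hsl2 and 414.9 ± 41.5 CPM in wild type (SD, n = 3 each). The fitted fold change was above 0 for 9 members and below 0 for 1, with a median of 0.82 on the log2 scale of hsl2 over wild type. Over all genes tested the median was 0.01, with 9275 above 0 and 8714 below. In 7 of the 10, every hsl2 library lay above every wild type library, a pattern shown by 11.3% of all genes tested. edgeR called 0 of the 10 members (0% of all genes tested). An unadjusted p under 0.05 was found for 8, all higher in hsl2, and for 1355 of the 17989 genes tested in that direction. The family was chosen for this difference, so counts of members called describe it and carry no test. DESeq2 called 5 members as higher in hsl2 (AGP12, AGP13, AGP21, AGP22 and AGP24), against 0.917% of all genes tested.

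**Figure D1:**
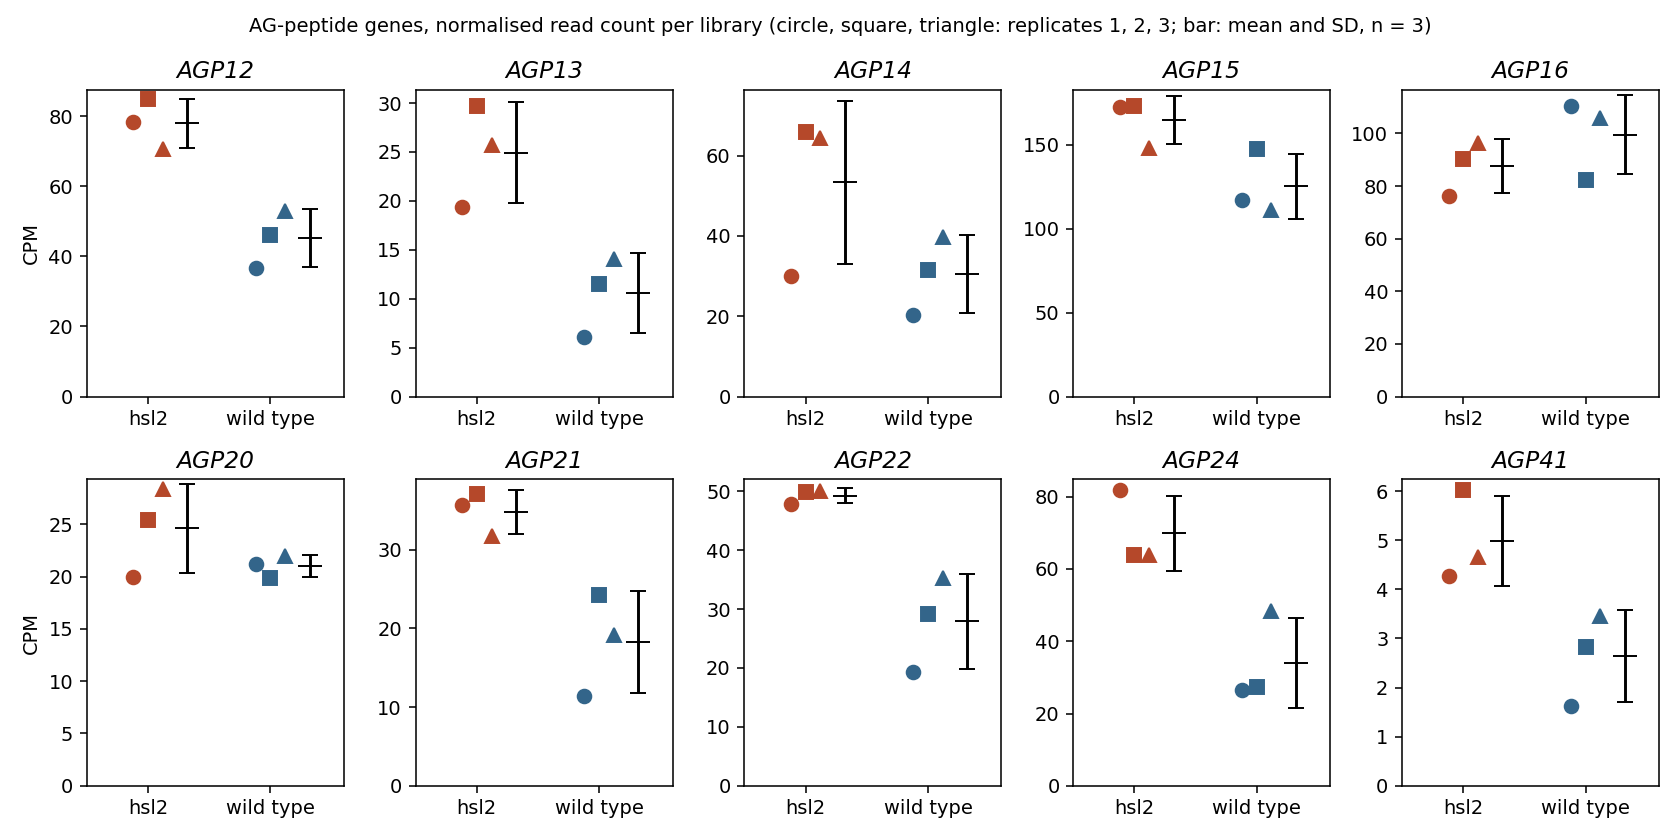
Normalised read count (CPM, linear axis from 0) of each AG-peptide gene in every library, with hsl2 left of wild type; symbols mark replicates 1 to 3 and bars the mean and SD of 3 libraries. The genotypes separate in 7 panels and overlap in those of AGP14, AGP16 and AGP20.

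The subgroup of AGP12, AGP13, AGP14 and AGP21 had fold changes between 0.79 and 1.25. AGP13 was at 19.4, 29.7 and 25.7 CPM in hsl2 libraries 1 to 3, against 6.1, 11.5 and 14.1 CPM in wild type libraries 1 to 3. The groups did not overlap, and both had their lowest value in replicate 1. Its log2 fold change of 1.25 (standard error 0.28) was the largest of the family. AGP12 was at 78.3, 84.8 and 70.6 CPM in hsl2 against 36.7, 46 and 53 CPM in wild type, again without overlap (log2 fold change 0.79, standard error 0.16).

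AGP21, the peptide tied to root hair fate, was at 35.7, 37.1 and 31.7 CPM in hsl2, against 11.4, 24.2 and 19.2 CPM in wild type. The groups did not overlap, and wild type replicate 1 was the lowest library (log2 fold change 0.94, standard error 0.24). AGP14, whose loss is known to lengthen root hairs, was at 29.9, 65.8 and 64.3 CPM in hsl2 against 20.3, 31.6 and 39.7 CPM in wild type. Here hsl2 replicate 1 fell among the wild type libraries, so the groups overlapped (log2 fold change 0.81, standard error 0.31). Without hsl2 replicate 1 the fold change of AGP14 was 1.07.

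The subgroup of AGP16, AGP20, AGP22 and AGP41 was divided. AGP16 was at 76.3, 90.2 and 96.3 CPM in hsl2 libraries and 110.3, 82.4 and 106.0 CPM in wild type libraries. The groups overlapped, with means of 87.6 ± 10.3 and 99.6 ± 15 CPM in hsl2 and wild type (SD, n = 3), and its log2 fold change of -0.19 (standard error 0.16) was the one value below 0. Leaving out 1 library at a time put it between -0.30, without wild type replicate 2, and -0.12, without hsl2 replicate 1. AGP20, its closest relative, was at 20, 25.4 and 28.4 CPM in hsl2 against 21.2, 19.9 and 22 CPM in wild type, which also overlapped (log2 fold change 0.23, standard error 0.16). Without hsl2 replicate 3 the fold change of AGP20 was 0.11.

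AGP22 was at 47.8, 49.8 and 50.1 CPM in hsl2 against 19.3, 29.2 and 35.2 CPM in wild type. The 3 hsl2 values lay close together, with an SD of 1.3 CPM, whereas the wild type values spread over an SD of 8.04 CPM, and the groups did not overlap (log2 fold change 0.82, standard error 0.20). AGP41 was the rarest member, with 60, 119 and 71 counts in hsl2 libraries and 33, 46 and 57 counts in wild type libraries. Its values did not overlap at 4.27, 6.02 and 4.65 CPM in hsl2 against 1.62, 2.83 and 3.46 CPM in wild type (log2 fold change 0.93, standard error 0.30).

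Of the remaining pair, AGP24 was at 81.8, 63.9 and 63.8 CPM in hsl2 against 26.4, 27.4 and 48.4 CPM in wild type. It was the one member with a top value in hsl2 replicate 1, and wild type replicate 3 stood well above the other wild type libraries without reaching hsl2 (log2 fold change 1.04, standard error 0.23). AGP15 was at 172.6, 173.0 and 148.1 CPM in hsl2 against 117.1, 147.1 and 111.3 CPM in wild type. The groups did not overlap, but hsl2 replicate 3 lay barely above wild type replicate 2, and the log2 fold change was 0.39 (standard error 0.15).

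**Figure D2:**
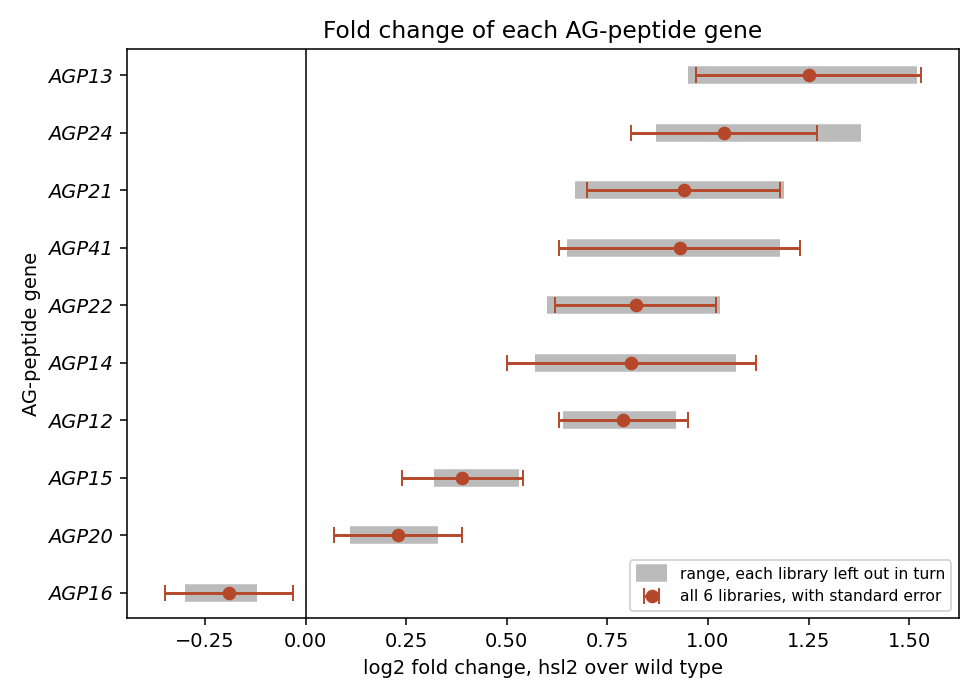
Log2 fold change of hsl2 over wild type for each AG-peptide gene, with its standard error (red) and the range when each of the 6 libraries was left out in turn (grey). Values run from -0.19 for AGP16 to 1.25 for AGP13, and AGP16, AGP20 and AGP15 lie lowest.

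Levels of different genes were compared per kb of transcript, using mean transcript lengths from RefSeq TAIR10.1, since CPM grows with transcript length. On this scale AGP15 was the most abundant member in both genotypes, at 159.1 ± 13.8 CPM per kb in hsl2 and 121.0 ± 18.6 CPM per kb in wild type (SD, n = 3). In hsl2 it was followed by AGP14, AGP16, AGP24, AGP12 and AGP21, and neighbours among these 6 overlapped within mean ± SD. AGP22, AGP13, AGP20 and AGP41 came next in hsl2, each apart from the gene above it. In wild type, AGP16 at 117.7 ± 17.8 CPM per kb overlapped AGP15, and AGP14 at 61 ± 19.4 CPM per kb lay apart below them. From AGP14 down to AGP22 the wild type neighbours (AGP14, AGP12, AGP24, AGP21, AGP22) overlapped. Below them, AGP20 at 24.4 ± 1.23 CPM per kb and AGP13 at 18 ± 6.93 CPM per kb overlapped each other in wild type, with AGP41 last at 3.6 ± 1.27 CPM per kb.

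AGP15 and AGP16 together took 44%, 42.1% and 41.9% of the members' counts in hsl2 libraries, against 61.4%, 54.4% and 48% in wild type libraries. The members' counts in wild type were thus weighted toward these 2 genes, most of all in replicate 1, and the share was lower in every hsl2 library. These shares are of counts and are not scaled to transcript length. Per kb, AGP16 held rank 3 in hsl2 and rank 2 in wild type, while AGP24 held rank 4 in hsl2 and rank 5 in wild type. With the longest transcript of AGP16 as its length, AGP16 held rank 5 and AGP24 rank 3 in hsl2, and their wild type ranks were as before.

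**Figure D3:**
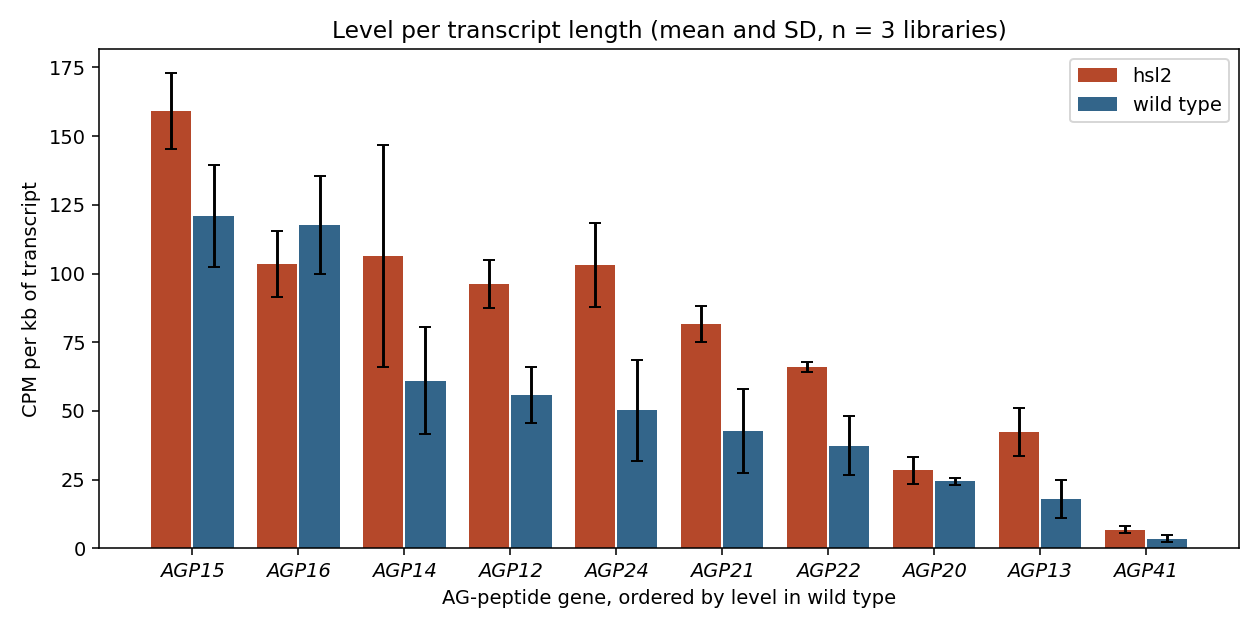
Level of each AG-peptide gene in CPM per kb of transcript (linear axis from 0), as mean and SD of 3 libraries, with hsl2 bars left of wild type bars and genes ordered by wild type level. AGP15 is highest in both genotypes and AGP41 lowest, and AGP16 is the gene whose hsl2 bar is the shorter.

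The members also varied within each genotype. Among wild type libraries, 7 of the 10 were highest in replicate 3 and 7 were lowest in replicate 1. Among hsl2 libraries, 6 were highest in replicate 2 and 6 were lowest in replicate 1. The mean of the members' log2 CPM, each relative to its own mean, was 0.21, 0.48 and 0.38 in hsl2 libraries 1 to 3, against -0.70, -0.28 and -0.09 in wild type libraries 1 to 3. Correlation over the 6 libraries with the mean of the other 9 members was 0.83 to 1.00 for AGP12, AGP13, AGP14, AGP21, AGP22, AGP24 and AGP41. It was 0.68 for AGP15, 0.60 for AGP20 and -0.48 for AGP16. These 6 points share the difference between genotypes, so the values describe the pattern and carry no test.

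**Figure D4:**
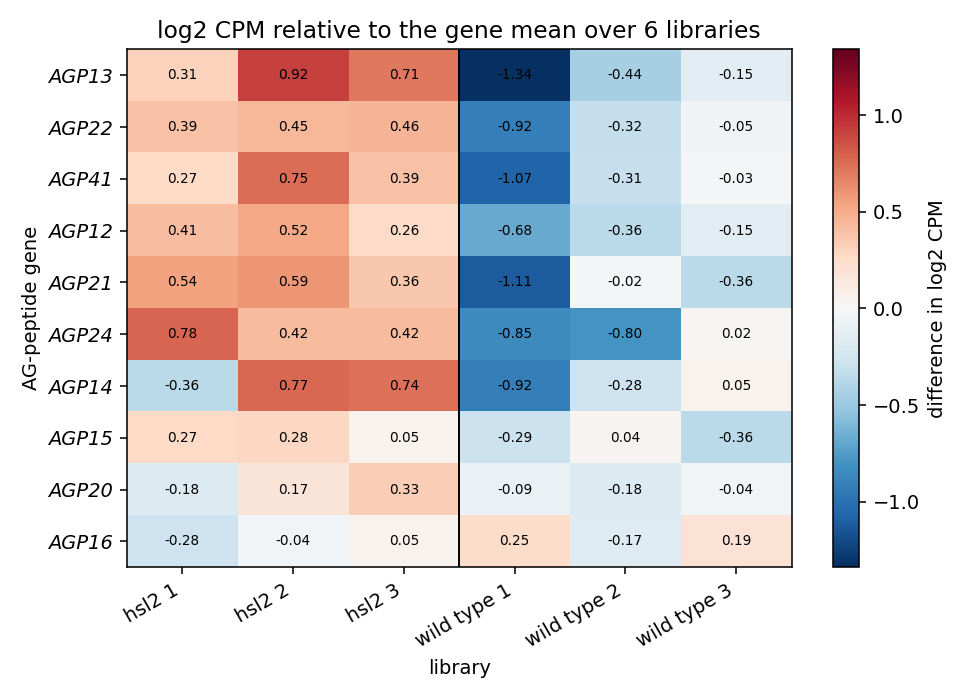
Log2 CPM of each AG-peptide gene in every library relative to the gene's mean over 6 libraries (red above, blue below), hsl2 libraries left of the line, genes ordered by correlation with the mean of the other 9 members. Wild type replicate 1 is the lowest column, at -1.34 for AGP13 and -1.11 for AGP21, and AGP16 at the bottom has the opposite pattern there, at 0.25.

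Marker transcripts of several cell types differed between the same libraries. The 9 root hair markers summed to 87.8, 125.4 and 129.2 CPM in hsl2 libraries 1 to 3, against 51.2, 71.4 and 104.0 CPM in wild type libraries 1 to 3. All 9 had counts in every library. The wild type libraries stood in the same order as in the AG-peptide mean, and the hsl2 libraries did not. Of these markers, 8 were tested, and all 8 had fold changes above 0, with a median of 0.87 on the log2 scale. The AG-peptide median was 0.82. edgeR and DESeq2 called 0 of the 8. COBL9, a gene of root hair growth, was at 7.69, 13.8 and 11.1 CPM in hsl2 against 1.67, 4.12 and 7.77 CPM in wild type, and the root hair expansin gene EXPA7 was at 3.49, 5.21 and 5.82 CPM against 0.443, 0.615 and 5.83 CPM. GL2, the repressor of hair fate, averaged 22.3 ± 3.21 CPM in hsl2 and 36.1 ± 6.11 CPM in wild type (SD, n = 3). Its adjusted p was 0.198 with edgeR and 0.0265 with DESeq2. Of the 4 non-hair and patterning markers, GL2 among them, 3 had fold changes below 0 and 1 above. The latter, WER, averaged 48.6 ± 4.74 CPM in hsl2 and 47.7 ± 4 CPM in wild type (SD, n = 3). The part of these transcripts in the AG-peptide values was not tested.

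The 7 root cap markers, all with counts in every library as the labelled tissue would have, summed to 106.7, 145.0 and 135.1 CPM in hsl2 libraries, against 225.3, 278.5 and 145.2 CPM in wild type libraries. Wild type replicate 3 was level with hsl2 replicate 2. All 7 had fold changes below 0, with a median of -0.65 on the log2 scale. edgeR called 0 of them, and 5 had an unadjusted p under 0.05, all lower in hsl2. Over all genes tested, 1081 of 17989 did so. Of the 17989 genes tested, DESeq2 called 127 as lower in hsl2. It called 1 of the 7 root cap markers. That gene, RCPG, named for a root cap polygalacturonase, averaged 11.1 ± 4.35 CPM in hsl2 and 36 ± 14.1 CPM in wild type (SD, n = 3; edgeR adjusted p = 0.138, DESeq2 adjusted p = 0.000121). SMB, a transcription factor of root cap maturation, averaged 35.7 ± 9.09 CPM in hsl2 and 41.5 ± 3.37 CPM in wild type (SD, n = 3). The part of the root cap transcripts in the AG-peptide values was not tested. The 10 green tissue markers summed to 109.5, 27.7 and 27.7 CPM in hsl2 libraries against 22.3, 21.1 and 38.2 CPM in wild type libraries, so hsl2 replicate 1 was the high one. In that library the light-harvesting gene LHCB1.3 reached 40.4 CPM and the Rubisco small subunit gene RBCS1A 16.7 CPM. Not all of the 10 were highest there. LHCB4.1 was at 8.75 CPM in hsl2 replicate 1 against 10.4 CPM in wild type replicate 3, and RCA at 5.76 against 6.19 CPM. The 6 xylem markers summed to between 14.2 and 35.9 CPM in hsl2 and between 13.1 and 21.4 CPM in wild type. Of these 6, 5 had fold changes above 0 and 1 below, with a median of 0.82 on the log2 scale. edgeR and DESeq2 called 0 of them. The part of the xylem transcripts in the AG-peptide values was not tested. The 5 stem cell and division markers summed to between 116.1 and 161.1 CPM in hsl2 and between 145.0 and 195.7 CPM in wild type. Non-hair and patterning markers (4 genes) ran from 94.7 to 106.4 CPM in hsl2 and from 105.1 to 130.0 CPM in wild type, and the 6 endodermis markers from 61.7 to 80.1 CPM in hsl2 and from 70.1 to 76.3 CPM in wild type.

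With hsl2 replicate 1 and wild type replicate 3 both left out, the members' median log2 fold change was 1.01, and 9 of 10 members had both remaining hsl2 libraries above both remaining wild type libraries, as did 28.7% of all genes tested. edgeR then called 6 members, all higher in hsl2 (AGP12, AGP13, AGP14, AGP22, AGP24 and AGP41), and it called 4.48% of all genes tested there as higher. The log2 fold change of AGP14 was then 1.33, against 0.81 with all libraries, and that of AGP20 was 0.39, against 0.23. That of AGP15 was 0.28, against 0.39. Wild type replicate 3 was the highest wild type library for 7 of the 10 members, and hsl2 replicate 1 the lowest hsl2 library for 6. Leaving both out therefore widens the difference for which the family was chosen, and the counts above carry no test.

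A further pair of AG-peptide genes, AGP23 (AT3G57690) and AGP40 (AT3G20865), known from pollen, was near 0. Both had 0 counts in the hsl2 libraries, which allows up to 0.152 to 0.213 CPM per library, and at most 0.0607 CPM in any wild type library. Neither passed the filter.

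Longer relatives of the AG-peptides gave a mixed picture. A list of 18 genes for longer arabinogalactan proteins held, among others, classical and lysine-rich ones, which carry the same kind of glycan on a longer backbone. Of the 18, 15 were tested, 7 with fold changes above 0 and 8 below, and the median was -0.04. edgeR called 0 of them, with unadjusted p under 0.05 for 4 higher and 1 lower. Over all 17989 genes tested, those counts were 1355 and 1081. DESeq2 called 1 of the list, which was higher in hsl2, against 0.917% of all genes tested. That gene was AGP2 (AT2G22470), at 86.9, 91.8 and 82.8 CPM in hsl2 libraries against 35.9, 56.9 and 62.3 CPM in wild type libraries. The groups did not overlap, and the log2 fold change of 0.76 was larger than its standard error of 0.19 (edgeR adjusted p = 0.209, DESeq2 adjusted p = 0.0266). AGP7 (AT5G65390) had a log2 fold change of 0.55 with overlapping libraries (edgeR adjusted p = 0.33). No difference between the AG-peptides and this list was tested, since the AG-peptides were chosen for their values.

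Enzymes that prepare and glycosylate these peptides were also measured. Of 13 prolyl 4-hydroxylase genes, whose products make the hydroxyproline on which the glycans are built, 9 were tested, 8 with fold changes above 0 and 1 below. Their median was 0.23, and 5 had every hsl2 library above every wild type library, as did 11.3% of all genes tested. edgeR and DESeq2 called 0 of them, and 4 had an unadjusted edgeR p under 0.05, all higher in hsl2. Over all genes tested, 1355 of 17989 did so. P4H2 (AT3G06300), known to act in root hair growth, was at 136.1, 122.1 and 132.9 CPM in hsl2 against 88.1, 79.6 and 105.0 CPM in wild type, without overlap (log2 fold change 0.52, standard error 0.14, edgeR adjusted p = 0.229, DESeq2 adjusted p = 0.0553). P4H4 (AT5G18900) had a log2 fold change of 0.43 (standard error 0.12, edgeR adjusted p = 0.244).

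Of 16 genes for enzymes that build the arabinogalactan chains, 15 were tested, 9 above 0 and 6 below, with a median log2 fold change of 0.08. edgeR called 0, and 2 had an unadjusted p under 0.05, both higher, as did 1355 of the 17989 genes tested. DESeq2 called 1. It was FUT4 (AT2G15390), a fucosyltransferase that adds fucose to arabinogalactan chains, at 19.9, 19.2 and 19.4 CPM in hsl2 against 8.21, 12.5 and 12.4 CPM in wild type. The groups did not overlap, and hsl2 libraries lay within 1 CPM of each other (log2 fold change 0.82, standard error 0.18, edgeR adjusted p = 0.173, DESeq2 adjusted p = 0.0136). HPGT1 (AT5G53340), one of the enzymes that put the first galactose on hydroxyproline, averaged 58.6 ± 3.24 CPM in hsl2 and 48.7 ± 1.05 CPM in wild type (SD, n = 3; edgeR adjusted p = 0.368). All 11 genes of GPI anchor synthesis and transfer were tested, 5 above 0 and 6 below, with a median of -0.08. None of these 11 was called by edgeR or DESeq2, and 0 had an unadjusted edgeR p under 0.05. AT5G19130, annotated as a Gaa1-like component of the GPI transamidase, had a log2 fold change of -0.27 (edgeR adjusted p = 0.415), and AT3G27325 one of -0.29 with overlapping libraries (0.552).

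Genes outside the family were ranked by how closely their log2 CPM followed the members' mean over the 6 libraries, among 11994 genes with a mean of at least 10 CPM. The 5 most alike had Pearson correlations of 0.992 to 0.997, and 117 genes reached 0.95. They were AT4G12510 of the lipid-transfer and 2S albumin superfamily, the cytokinin response regulator gene ARR9, MLP34, AT3G27470, and the auxin response repressor gene IAA28. AT4G12510 was at 34.5, 54.4 and 49.3 CPM in hsl2 libraries against 6.59, 15.4 and 22.5 CPM in wild type libraries. IAA28 was at 30.5, 44.4 and 38.9 CPM in hsl2 against 11.2, 15.8 and 24.1 CPM in wild type. Both followed the same library order as AGP13, lowest in replicate 1 of each genotype. The members' mean holds the difference between genotypes for which they were chosen. These correlations therefore describe a shared pattern and carry no test.

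The 250 bases before the annotated start of each gene were searched on both strands for short motifs. TATAAA was found for 4 of 10 members (AGP12, AGP14, AGP21 and AGP24), against 47.3% of 27561 protein-coding genes, and CANNTG, which includes CACGTG, for 6 of 10 against 55.2%. The root hair element, searched as TG and CACG with 4 or 5 bases of any kind between them, was found for AGP24 alone of the members, against 9.01% of genes. Matches were 0 of 10 for the L1 box (TAAATGCA or TAAATGTA, 4.48% of genes), for CACGTG (6.46%) and for AAACCCTA (4.47%). A match describes letters in this window and says nothing about the factor.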

How the data were processed

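RNA sequencing libraries of 6 root tip samples were analysed. The authors deposited unnormalized read counts per gene, with 1 file for each sample. Per the submitters' processing notes, Trimmomatic 0.33, STAR 2.5.1b and featureCounts were used. Which genome build, annotation and strand setting they used is not given in the sources used here. Libraries were stranded TruSeq preparations, per the labels' protocols.

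Groups came from the sample titles. In R 4.3.3, edgeR 4.0.16 fitted genotype on all 6 libraries, after filterByExpr and TMM scaling, and tested it with the quasi-likelihood method. Benjamini-Hochberg adjustment ran over all 17989 genes tested, with a threshold of 0.05. Each standard error is the fold change divided by the root of its F statistic. DESeq2 1.42.0 and limma-voom (limma 3.58.1) were alternatives. The calls were tested on simulated data with known fold changes. There edgeR recovered 16.4% of genes changed 1.5-fold, 70.1% of those changed 2-fold and 93.9% of those changed 4-fold. It made 131 calls, of which 11 were false. DESeq2 made 149 calls, of which 23 were false, and limma-voom 124, of which 6 were false. P-values reflect only how far these libraries vary, some of which may be technical. Titles share replicate numbers, but same-numbered libraries deviated together with correlations of 0.138, 0.065 and 0.02, so they were not treated as pairs. No 2 libraries were alike within counting noise (chi-square per degree of freedom of at least 6.168).

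Transcript lengths, coding sequences and upstream windows came from RefSeq TAIR10.1, matched by locus for all 10 members. No coordinates are given, since the build of the counts is not stated. Identities are from global alignments (Biopython 1.88). Log2 CPM used a prior count of 2.

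The members, lists and tests were chosen with earlier results of these data known. Genes named are all members, HSL2, the other AG-peptide genes, 6 defining markers, the 5 most alike genes and, for each other list in which no gene passed with edgeR, the 2 with the smallest p. Named outside this rule, after their values were seen, were the overlapping loci AT2G46320 and AT1G55335, the root cap gene RCPG, the markers LHCB4.1, RCA and WER, and AGP31.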

Additional observations from a re-analysis of the deposited data

How the results depend on the processing

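The members' median log2 fold change stayed between 0.62 (without wild type replicate 1) and 1.01 in the 13 alternatives run, against 0.82, with 9 members above 0 and 1 below in each. Each member kept its sign in all 13. The number of genes called depended on the tool. With all genes, edgeR called 0 with TMM, RLE or upper-quartile factors and limma-voom called 0, against 292 with DESeq2, 110 with no filter on low counts, and 1311 with hsl2 replicate 1 and wild type replicate 3 both left out. Genes called as higher in hsl2 were 165, 49 and 816 in those alternatives. That is 0.917% of genes tested with DESeq2 and 4.48% with both libraries left out, and the share without a filter was not computed. Of the members, those alternatives called 5, 3 (AGP12, AGP13 and AGP24) and 6, all higher in hsl2. Of the glycoprotein and enzyme lists they called 2, 0 and 8 (7 higher in hsl2, and AGP31 lower). The count of members without overlap in that last setting, 9 against 7, was added after the data were seen. The cause was not tested. With each library left out in turn, edgeR called 0 to 55 genes and 0 to 1 members. The 55, of which 42 were higher in hsl2, and the 1 member (AGP24, also higher) came without wild type replicate 3. With the replicate number as a block, 52 of the 17989 genes tested were called, 23 of them higher in hsl2, and 1 member (AGP13, also higher). The numbers pair no samples by the labels, and 1 of 3 same-numbered pairs correlated above 0.1. Taking the longest transcript of AGP16 left its levels within their spread but changed its rank in hsl2 to 5, at a family sum of 783.1 against 793.8 CPM per kb in hsl2. With 3 libraries per genotype and 33 to 119 counts, AGP41 is the member that depth limits most.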
